A study of Mus musculus with 51 samples.

Results

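Among the H3K9me3 peaks of MC3T3-E1 cells cultured with vitamin C, 2704 of 33708 were strong and also had a peak in the cells cultured without it. They were selected on measured values of both peak lists: a −log10 q of at least 5 in the VitC+ list, where q is the false discovery rate of the peak caller, and an overlap of at least 1 bp with a peak of the VitC- list. The fold enrichment, q and overlap of these peaks are therefore given as descriptions, without a test. MC3T3-E1 is a mouse calvarial pre-osteoblast line, and it was grown here with 0 or 50 µg/ml of vitamin C in medium that held β-glycerophosphate in both arms. The labels gave 28 days of treatment, whereas the peak names and the study's methods gave 7 days for the chromatin immunoprecipitation. Each arm had 2 dishes, and the peak names of both lists carried a single run number, so no spread between dishes could be given. The same cell line was profiled for H3K27me3 and for 5-hydroxymethylcytosine (5hmC, an oxidised form of methylated cytosine). The titles of its 5hmC samples gave day 28, so 5hmC and H3K9me3 may come from different days of culture. The series further held mouse femurs at 20 weeks of age, from wild-type mice (WT) and from Gulotm1Mae mice, which cannot make vitamin C because the enzyme L-gulonolactone oxidase is missing. These mice received 3.3 g/l of vitamin C in their water for all 20 weeks (VitC+) or for 15 weeks only (VitC+/-). Femurs of 11-week-old control mice (Ctrl) and of mice lacking Tet1 and Tet2 in limb mesenchyme through a Prrx1-driven deletion (Tet1/2 cKO) were used here for their 5hmC peaks.

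H3K9me3 marks heterochromatin. It is written by SETDB1 and the SUV39H enzymes, it is bound by the HP1 proteins, and it is removed by KDM4 demethylases, which need ferrous iron and α-ketoglutarate and whose activity vitamin C can support. At many sites the mark is directed by KRAB zinc finger proteins, which bind DNA through tandem C2H2 fingers and recruit TRIM28 and SETDB1. Retrotransposons, satellite repeats, the 3′ exons of zinc finger genes and the methylated allele of imprinted control regions, bound by ZFP57 and ZFP445, are the places it is best known for.

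The 2704 peaks covered 7.66 Mb of the 44.0 Mb under all VitC+ peaks. The share of VitC+ peaks with any overlapping VitC- peak was 68.5% over the whole list. Of the 3253 strong VitC+ peaks, 83.1% overlapped a VitC- peak and 549 did not. Only 1840 of the 44832 VitC- peaks reached the same q, and the median fold enrichment was 2.74 in that list and 3.27 in the VitC+ list. The VitC- list covered more of the genome, 66.8 Mb against 44.0 Mb, and its median peak width was 870 bp against 708 bp. The kept strong peaks met 2855 VitC- peaks in all. Across the threshold there was no step in the values: the 5 kept peaks just above it had folds of 3.88 to 4.30 with vitamin C and 2.85 to 5.41 without it, and the 5 just below it had 3.55 to 4.34 and 3.11 to 3.81.

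The DNA under the kept strong peaks was of different kinds, and the windows below show the leading examples. Each is 300 bases of mm10 read from the RefSeq GRCm38.p6 plus strand. The first shows the peak with the highest −log10 q of all (703), in an intron of 2700054A10Rik, a tandem repeat with a period of 19 bases. The capitals mark the copies of its most frequent 19-base word. The second is the centre of the peak with the highest q outside genes, and the third the centre of a peak near the start of the assembled chromosome 9. Both belong to repeats with a period of 234 bases, the unit length of the mouse major satellite, and the capitals mark bases in 24-base words that the whole of the other peak holds on either strand, also outside the window printed.
2700054A10Rik intron, chr17:13551773-13552072: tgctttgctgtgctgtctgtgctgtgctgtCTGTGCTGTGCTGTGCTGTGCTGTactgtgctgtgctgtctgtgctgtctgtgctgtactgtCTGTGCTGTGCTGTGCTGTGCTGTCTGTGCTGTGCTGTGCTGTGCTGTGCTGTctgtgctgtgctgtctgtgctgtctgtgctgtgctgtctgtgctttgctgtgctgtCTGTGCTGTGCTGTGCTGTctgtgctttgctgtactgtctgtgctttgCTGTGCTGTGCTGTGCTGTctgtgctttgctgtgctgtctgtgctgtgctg
distal repeat, chr2:98666637-98666936: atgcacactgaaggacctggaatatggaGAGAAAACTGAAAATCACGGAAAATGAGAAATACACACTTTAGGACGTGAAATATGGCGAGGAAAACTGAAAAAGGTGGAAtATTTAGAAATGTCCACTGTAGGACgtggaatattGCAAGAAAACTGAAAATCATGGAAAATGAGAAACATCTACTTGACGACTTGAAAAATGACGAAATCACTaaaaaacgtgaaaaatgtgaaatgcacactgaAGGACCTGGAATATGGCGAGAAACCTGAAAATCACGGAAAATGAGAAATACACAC
chromosome 9 repeat, chr9:3019207-3019506: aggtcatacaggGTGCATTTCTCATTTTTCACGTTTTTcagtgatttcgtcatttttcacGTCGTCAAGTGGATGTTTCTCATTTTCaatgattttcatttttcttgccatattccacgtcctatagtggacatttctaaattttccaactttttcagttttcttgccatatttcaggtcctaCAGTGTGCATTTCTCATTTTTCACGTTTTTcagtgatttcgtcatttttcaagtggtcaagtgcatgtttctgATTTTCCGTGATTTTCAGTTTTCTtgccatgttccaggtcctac

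The next window shows the peak with the highest fold enrichment, in an intron of 6530403H02Rik. Its capitals mark 260 bases lying in 24-base words that recur in at least 10 other kept strong peaks under 1 kb wide, so it stands for the interspersed repeats described below.
6530403H02Rik intron, chr3:120717214-120717513: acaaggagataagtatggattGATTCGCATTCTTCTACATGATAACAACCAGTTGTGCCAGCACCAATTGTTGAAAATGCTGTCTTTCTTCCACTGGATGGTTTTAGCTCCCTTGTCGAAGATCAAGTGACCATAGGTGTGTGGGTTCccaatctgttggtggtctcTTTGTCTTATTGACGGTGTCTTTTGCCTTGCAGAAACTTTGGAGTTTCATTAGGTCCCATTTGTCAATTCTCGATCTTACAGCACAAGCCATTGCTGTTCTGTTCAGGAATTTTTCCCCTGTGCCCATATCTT

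The zinc finger genes are shown by a stretch of the coding exon of Zfp433, with capitals on the 4 copies of GGAGAGAAACC, the most frequent coding sequence of the linker between neighbouring C2H2 fingers in GENCODE transcripts (2297 of 5098 linkers), and by the centre of the zinc finger gene peak with the highest q, a 337-bp peak in a Zfp398 intron that holds no such copy. The Zfp433 stretch, the chromosome 9 and chromosome 3 windows and the Grb10 window below were chosen after the values were seen.
Zfp433 coding exon, chr10:81720221-81720520: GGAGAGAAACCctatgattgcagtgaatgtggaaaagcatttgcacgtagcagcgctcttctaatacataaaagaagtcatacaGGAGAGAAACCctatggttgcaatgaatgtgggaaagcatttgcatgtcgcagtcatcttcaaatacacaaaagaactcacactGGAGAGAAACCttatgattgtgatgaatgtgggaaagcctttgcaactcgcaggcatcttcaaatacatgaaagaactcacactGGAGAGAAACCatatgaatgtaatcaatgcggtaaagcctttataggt
Zfp398 intron, chr6:47848548-47848847: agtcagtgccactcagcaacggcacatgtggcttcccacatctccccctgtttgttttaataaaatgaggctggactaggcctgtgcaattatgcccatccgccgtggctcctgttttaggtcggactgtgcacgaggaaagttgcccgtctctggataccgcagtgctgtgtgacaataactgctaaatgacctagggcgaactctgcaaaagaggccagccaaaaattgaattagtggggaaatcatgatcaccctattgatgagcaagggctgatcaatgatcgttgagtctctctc

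For the imprinted loci, a Grb10 intron window is shown with capitals on its 4 copies of TGCCGC or its reverse complement GCGGCA, the core of the ZFP57 motif, together with the centre of the Mest peak, the imprinted locus with the highest q, which holds none within these 300 bases.
Grb10 intron, chr11:12025970-12026269: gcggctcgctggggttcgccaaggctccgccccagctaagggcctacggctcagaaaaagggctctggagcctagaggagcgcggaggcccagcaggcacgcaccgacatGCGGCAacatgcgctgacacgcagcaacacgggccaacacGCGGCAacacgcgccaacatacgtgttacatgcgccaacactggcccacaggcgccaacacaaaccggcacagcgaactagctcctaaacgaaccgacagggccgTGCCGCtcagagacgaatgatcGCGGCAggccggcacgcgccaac
Mest intron, chr6:30736404-30736703: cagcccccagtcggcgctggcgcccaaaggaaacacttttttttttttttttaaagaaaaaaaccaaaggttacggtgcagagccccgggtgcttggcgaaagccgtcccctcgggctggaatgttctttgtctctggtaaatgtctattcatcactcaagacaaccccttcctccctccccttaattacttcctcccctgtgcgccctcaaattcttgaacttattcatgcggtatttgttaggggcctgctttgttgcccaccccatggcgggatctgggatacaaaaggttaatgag

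The widths of the kept strong peaks fell into a narrow and a wide group, and a division at 1 kb was set after the widths were seen. The 1500 peaks under 1 kb had a median width of 294 bp and covered 0.544 Mb, whereas the 1204 peaks of at least 1 kb had a median width of 3490 bp and covered 7.12 Mb. Repeat content separated them further. The number of exact copies in mm10 of 31-base words taken along each peak had a median of 1662 in the narrow peaks and 2 in the wide ones. Among narrow peaks with sequence, 89.7% had a median of 100 or more copies, against 26.7% of the wide peaks and 23.2% of all VitC+ peaks. Soft-masked repeats made up 95.8% of the narrow bases and 51.9% of the wide bases. The strong VitC+ peaks without a VitC- peak resembled the narrow group, with a median width of 192 bp and a median of 2754 copies. Strong peaks of at least 1 kb were kept in 99.5% of cases and strong peaks under 1 kb in 73.4%, and among all VitC+ peaks the shares were 90.5% and 55.3%. Reads from sequences with many near-identical copies cannot be placed at 1 locus with certainty, and the part of read placement in the narrow peaks was not tested.

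**Figure D1:**
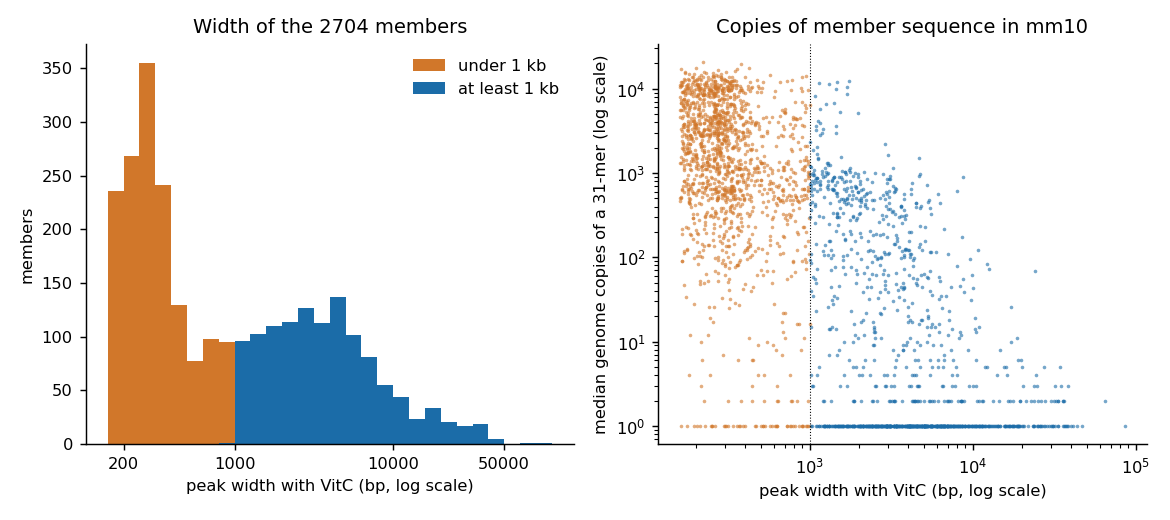
Left, number of kept strong peaks by width on a log scale, with peaks under 1 kb in orange and peaks of at least 1 kb in blue. Right, each point is 1 peak, with its width on the x axis and the median number of exact genome copies of its 31-base words on the y axis, both on log scales; narrow peaks had a median of 1662 copies and wide peaks of 2.

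Most narrow peaks resembled other narrow peaks. Aligned to each other at 80% identity or more over at least 70% of the shorter peak, 91.5% of the 1486 narrow peaks on placed chromosomes resembled at least 1 other. The median number of peaks alike was 18. Peaks linked by any such pair were put in 1 group, so peaks of a group need not all be alike. This gave 163 groups, 126 of them single peaks. The largest group held 929 peaks, 62.5% of the narrow peaks, with a median width of 270 bp and a median of 3808 genome copies. Its peaks had median folds of 4.03 with vitamin C and 3.25 without it. The second group held 257 peaks, with a median width of 419 bp, 698 copies and folds of 4.79 and 4.03. Its CpG content of 2.97 per 100 bases exceeded the 1.18 of the largest group. The third, of 34 peaks, had the higher fold in the VitC- list, at 3.86 against 3.39, a median log2 ratio of 0.13. Repeat families were not named, since no repeat annotation was used. The X chromosome carried 159 kept strong peaks, 134 of them narrow. It held few VitC+ peaks, 3.64 per Mb, and 25.6% of them were strong and kept, as were 21.4% on Y, compared with 8.02% genome-wide and 4.77% on chromosome 11. By density, chromosome 17 led with 1.67 kept strong peaks per Mb, followed by chromosome 10 with 1.32 and chromosome 4 with 1.28. X had 0.930, and the Y chromosome was lowest with 0.458.

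Most of the 10 peaks with the highest q were tandem or high-copy repeats. The one in Gm36684 at chr17:13305960-13306794 was not, with a median of 2 genome copies and 58.1% of its bases soft-masked. After the chromosome 17 repeat at chr17:13550674-13553172 (fold 5.94 with and 3.69 without vitamin C) came the distal repeat at chr2:98666311-98667262, with folds of only 1.43 and 1.40. The order by q was thus not the order by fold. The other 8 of the 10 highest peaks had −log10 q of 207 to 479. They lay on chromosomes 3, 18, 6, 14, X, 17, 8 and 4, in introns of 6530403H02Rik, Smo (the Hedgehog signal transducer Smoothened), Gm36684 and Frem3 (an extracellular matrix protein) and, for the other four, outside genes. At chromosome 9 the 3 peaks between 3000038 and 3038281 had folds of 1.73 to 1.92 with vitamin C and 1.46 to 1.60 without it, and 70.2 to 75.8% of their bases were identical 1 period of 234 bases further on. A 45874-bp peak on the unplaced contig JH584304 had similar folds of 1.93 and 1.53. In all, 38 kept strong peaks lay on such contigs.

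Fold enrichment was lower without vitamin C at most kept strong peaks, as it was across the lists. These peaks were selected on their VitC+ q, and the part of that selection in the lower VitC- folds was not tested. The VitC- list covered 66.8 Mb against 44.0 Mb, so the fold ratio is no measure of the total amount of the mark. The median fold was 4.43 in the VitC+ list and 3.47 in the VitC- list, and the median log2 ratio of VitC- to VitC+ was -0.34, with an interquartile range of -0.51 to -0.14. The fold was lower without vitamin C at 84.5% of them, against 87.4% of all VitC+ peaks that overlapped a VitC- peak. The wide peaks varied less than the narrow ones. Their interquartile range was -0.47 to -0.24 and 94.5% were lower, compared with -0.58 to -0.02 and 76.5% in the narrow peaks. At the weaker kept peaks the median log2 ratio was -0.20. Of 71 kept strong peaks whose VitC- fold was 50% of the VitC+ fold or less, 63 were narrow, and the 3 with at least 2 times the fold without vitamin C were all narrow.

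The extremes of the ratio were high-copy narrow peaks. The lowest belonged to the 768-bp peak at chr3:120716980-120717747, whose fold was 75.1 with vitamin C and 4.42 without it, a log2 ratio of -4.09. It was followed by chr11:45757032-45757706 with 27.3 and 4.49, and the next 3 had folds of 7.86 to 8.27 and of 2.57 to 2.67. At the other end, a 172-bp peak in an intron of Lrp1b, an endocytic receptor gene, had folds of 2.80 and 6.51, and the next 4 had 2.29 to 4.04 with vitamin C and 4.90 to 7.63 without it. All 10 were fully soft-masked and had medians of 494 to 9890 copies.

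**Figure D2:**
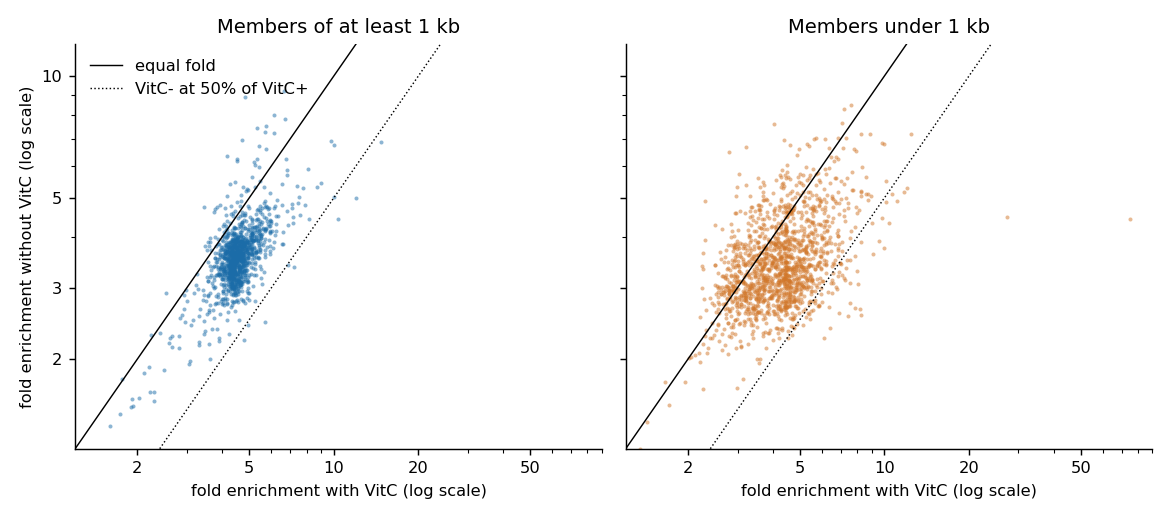
Each point is 1 kept strong peak, with its fold enrichment in the VitC+ list on the x axis and in the VitC- list on the y axis, both on log scales; left, peaks of at least 1 kb, right, peaks under 1 kb. Most points lie between the line of equal fold (solid) and the line at 50% (dotted), and 1 narrow peak stands at 75.1 on the x axis.

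At the kept strong peaks, width differed little between the lists. The VitC- peaks at these places had a median log2 width ratio of 0.07 to the VitC+ peaks, and 59.9% of the kept strong peaks met a wider VitC- peak. At weaker kept peaks the ratio was 0.69. VitC- peaks covered 90.1% of the bases of the kept strong peaks, 2281 of them paired one-to-one with a VitC- peak, and 139 met several. A VitC- peak that itself reached a −log10 q of 5 was present at 56.6%, with 32.8% for wide and 75.7% for narrow peaks.

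By location, 58.8% of the kept strong peaks had their centre over 3 kb from any gene, 30.4% in an intron, 3.40% in a last exon, 0.814% in another exon, 1.74% within 1 kb of a start and 3.51% within 3 kb of a gene. Over all VitC+ peaks the distal share was 55.3%, the last exon share 1.98% and the promoter share 3.25%. The last exon share was 7.06% among wide peaks and 0.467% among narrow ones. Of the wide peaks 48.3% overlapped a gene, and of the narrow peaks 29.3%.

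Many broad domains lay in zinc finger genes. Of 457 genes with a C2H2 zinc finger name in the annotation, 108 lay under 107 kept strong peaks, and these peaks made up 3.96% of the peaks but 21.3% of their bases, 1.63 Mb. All but 2 were at least 1 kb wide. Their median copy number was 1, so the sequences under them were largely unique. Their median fold was 4.67 with vitamin C and 3.61 without it, and all 107 had the lower fold without vitamin C, with log2 ratios of -0.73 to -0.15. Over all VitC+ peaks, 1.68% lay in these genes.

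The 10 zinc finger genes with the most bases under kept strong peaks were covered to very different degrees. Zfp781 was covered over 96.4% of its length by a 64667-bp peak at chr10:81864816-81929482, with folds of 5.89 and 4.57. Zfp97 was covered over 94.1%, Zfp81 over 91.8%, Zfp937 over 90.7% and Zfp942 over 89.2%. Zfp442 had 36160 bases under peaks, or 73.8% of the gene. Zfp934 and Zfp950 were covered over 38.8% and 38.2%. The long gene Zfp978 led in bases, with 37887, yet only 14.2% of it was covered, and Zfp993 was covered over 6.36%. The folds at these 10 genes lay between 4.03 and 5.89 with vitamin C and between 2.91 and 4.57 without it.

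Within zinc finger genes the mark lay toward the 3′ end. The centres of the 107 peaks had a median position of 66.9% of the gene length from the start, and 95 of them lay past the midpoint. They reached the last exon in 96 cases, 89.7%, and the start in 2. The first 10% of the gene lengths held 2.16% of the bases under kept strong peaks and the last 10% held 15.0%. All VitC+ peaks in zinc finger genes had a like profile, with 3.42% and 15.6%. The linker word GGAGAGAAACC, counted on both strands as in the Zfp433 exon above, occurred in 72.9% of the zinc finger peaks, in 11.7% of the wide peaks, in 0 of the 1486 narrow peaks and in 1.23% of all VitC+ peaks. In windows of 300 bases at the peak centre it was present in 16.0% of zinc finger peaks and 0.541% of all VitC+ peaks. It overlaps no other motif searched.

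**Figure D3:**
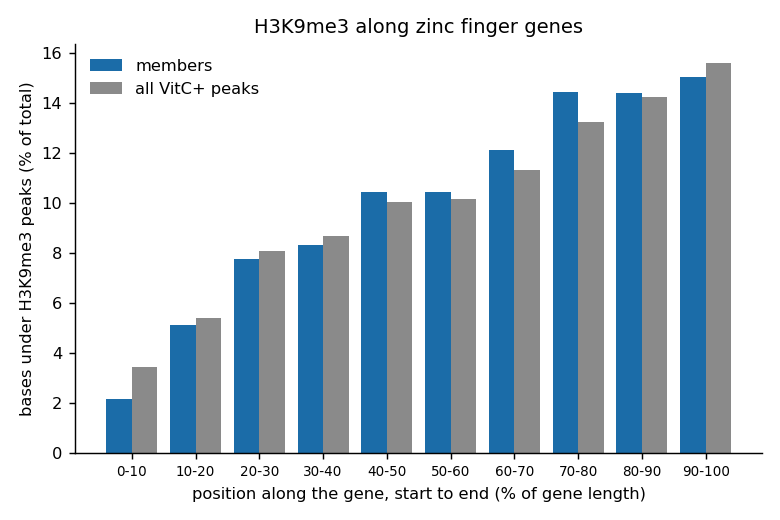
Bases under H3K9me3 peaks in steps of 10% of the zinc finger gene, from start to end in the direction of transcription. Values are percentages of all bases under the same set of peaks in these genes. Blue, kept strong peaks, grey, all VitC+ peaks, which include them. The blue bars rise from 2.16% in the first step to 15.0% in the last.

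Some of these domains lay in genes without a zinc finger name. At least 3 linker words occurred in 51 kept strong peaks outside the named genes, 49 of which overlapped a gene of another name, such as E430024I08Rik and A630089N07Rik. The richest, with 34 linker words, was the 17844-bp peak at chr10:130564218-130582061, with folds of 4.45 and 3.86. With genes taken by 3 or more C2H2 fingers in translated GENCODE transcripts, 125 kept strong peaks lay in 125 genes, 26 of them without a zinc finger name.

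Kept strong peaks formed runs. With gaps of up to 100 kb, 921 of the 2666 on placed chromosomes, 34.5%, belonged to 380 runs, 38 of which contained a zinc finger gene under a peak, and 14 runs held 5 or more peaks. The longest spanned 588.8 kb at chr10:81650782-82239539, with 10 peaks over 49.9% of the span and Zfp433, Zfp781, Zfp873 and Zfp938 under them, and median folds of 5.88 and 4.37. The second, of 373.4 kb at chr17:16952911-17326272, was covered over 64.9% and included Zfp97 and Zfp960. The third, of 373.3 kb at chr2:150109858-150483193, included Zfp120, Zfp345, Zfp442 and Zfp937. Runs at chr13:62438949-62783676 and chr17:22133278-22472330 also held zinc finger genes, so the 5 longest were all zinc finger clusters.

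The other 5 of the 10 longest runs were sparser. They had 2.05 to 24.6% of their span under peaks. The run at chr13:65994019-66292992 had no zinc finger name under it but included Gm10324, whose peak held 17 linker words. The run at chr4:5760952-6027487 held 8 peaks around Fam110b, and the run at chr17:13087913-13306794 held 4 with 1 at least 1 kb wide. The run at chr6:47652478-47848866 held 8 peaks at Rn4.5s copies and Zfp398, with median folds of 2.87 and 2.54, and the last, at chr17:18803551-18998330 by Vmn2r97, had a median log2 ratio of 0.15. Zinc finger peaks were most frequent on chromosome 17 with 22, chromosome 4 with 19, chromosome 7 with 12 and chromosome 13 with 11.

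Imprinted loci, where one parental allele is silenced, were held by few but recognisable peaks. Of 54 listed imprinted genes in the annotation, 13 lay within 10 kb of a kept strong peak and 15 had only a weaker peak in both lists. Another 7 had a VitC+ peak without an overlapping VitC- peak, and 19 had no VitC+ peak. Any VitC- peaks at those 19 are not given here. Peaks that overlapped a listed imprinted gene were 0.296% of the kept strong peaks and 0.187% of all VitC+ peaks. The 9 kept strong peaks within 10 kb of listed genes had a median fold of 4.65 with vitamin C and 3.56 without it. The strongest was the 7542-bp Mest peak at chr6:30732783-30740324, with folds of 5.62 and 4.85; Mest encodes a hydrolase-fold protein expressed from the paternal allele, and Copg2 lies within 10 kb. At Nnat, a brain proteolipid gene inside Blcap, the folds were 5.39 and 3.90 over 5730 bp.

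The Meg3 peak, 8021 bp over the promoter of the maternally expressed long noncoding RNA, had 4.72 and 3.63. At Grb10, which encodes a growth-restraining adaptor protein, a 4253-bp intron peak had 4.67 and 3.01. The noncoding RNAs Kcnq1ot1 and Airn, which silence neighbouring genes on the paternal allele, each held a peak over part of their length. The peak at Kcnq1ot1, of 7661 bp, covered 9.18% of it and had folds of 4.43 and 3.50. The peak at Airn, of 19282 bp, covered 16.3% and had folds of 4.07 and 3.56. Neither peak reached the start of its RNA. At Nap1l5 and its host gene Herc3 a 1973-bp peak had 4.17 and 3.23. These 7 wide peaks all had the lower fold without vitamin C.

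The other two imprinted entries were repeats. The Snrpn peak was 192 bp wide, consisted of soft-masked sequence with a median of 733 copies and had the higher fold without vitamin C, at 4.28 against 3.72. The peak 1777 bp from Inpp5f was 833 bp wide with 478 copies, and its folds were 4.65 and 3.21. TGCCGC, searched on both strands, occurred 0.613 times per kb in the 9 peaks, compared with 0.181 in the other wide peaks, 0.0588 in zinc finger peaks and 0.177 in all VitC+ peaks. The copies were unevenly spread: of 34, the Mest peak held 14 and the Nnat peak 8, and the Kcnq1ot1, Snrpn and Inpp5f peaks held 0. Counted by peak, the word occurred in 66.7% of the 9 and in 54.9% of the other wide peaks. The median CpG content was 3.13 per 100 bases against 1.58 in the other wide peaks. Windows of 300 bases at the centre held the word in 2 of the 8 imprinted peaks of that length, in 7.46% of wide peaks and in 4.92% of all VitC+ peaks.

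Other gene families were mostly absent. The widest kept strong peak of all, 85231 bp at chr18:37674971-37760201, lay over the gamma protocadherins, cell adhesion genes used in neuronal identity, with folds of 4.97 and 3.75, and with a second peak it covered 19 of 58 clustered protocadherin genes. None of 1427 olfactory receptor genes, 56 keratin-associated, 83 defensin and 100 listed X-linked Xlr, Rhox, Mage and Ssx genes was overlapped. Over the whole VitC+ list these families were rare as well, with 9, 4, 1 and 2 of 33708 peaks. Vomeronasal receptors had 3 of 356 genes overlapped and cytochrome P450 genes 5 of 134, with the most bases at Cyp2j13, Cyp20a1 and Cyp26a1, a retinoic acid hydroxylase gene whose peak had 4.68 and 5.08. Peaks at vomeronasal receptor and cytochrome P450 genes were 0.111% and 0.222% of the kept strong peaks, against 0.0593% and 0.157% of all VitC+ peaks.

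Klrb1c, Skint6 and Speer6-ps1 were the only genes overlapped in their families. Among 24 germline genes, Tdrd1 and Sycp1, which act in piRNA defence and in meiotic synapsis, had folds of 2.95 and 2.47 and of 3.27 and 4.16. Peaks at germline genes were 0.0740% of the kept strong peaks and 0.0534% of all VitC+ peaks. None of the 24 osteoblast and osteocyte genes or of the B-cell, adipocyte, erythroid, neutrophil and muscle lists was overlapped. Of all 33708 VitC+ peaks, only 10, 19, 2, 2, 2 and 1 met these lists, so their absence here is not particular to the kept strong peaks. Genes of the H3K9me3 machinery were overlapped in 3 of 30 cases: Smchd1, Atf7ip and Kdm4c. Peaks at machinery genes were 0.111% of the kept strong peaks and 0.0653% of all VitC+ peaks.

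At the kept strong peaks, other marks differed by width. H3K27me3 peaks of VitC+ cells overlapped 34.1% of the narrow and 13.5% of the wide peaks, against 18.1% of all VitC+ H3K9me3 peaks. By bases the shares were 23.3%, 2.38% and 8.71%. In VitC- cells the H3K27me3 shares were 21.0% of narrow and 14.3% of wide peaks, both below the 21.9% of all VitC+ H3K9me3 peaks, from lists of 84228 peaks over 233.4 Mb without and 86322 peaks over 144.7 Mb with vitamin C. In the largest repeat group 39.1% met an H3K27me3 peak of VitC+ cells, in the third group 88.2%.

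By number of peaks, 5hmC overlapped more of the wide than of the narrow kept strong peaks, and by bases the order turned. In VitC+ cells it overlapped 28.1% of wide and 5.60% of narrow peaks, but 3.58% of the bases of wide and 4.45% of those of narrow peaks. In VitC- cells the shares were 45.2% and 18.7% of peaks and 6.47% and 14.4% of bases, although that list covered fewer Mb, 148.6 against 197.4. Over all VitC+ H3K9me3 peaks the share overlapped was 9.88% with and 17.3% without vitamin C, so the same direction held over the whole list. A wider peak has more room for an overlap. Among all VitC+ H3K9me3 peaks of at least 1 kb, with a median width of 1859 bp, the shares were 14.85% and 28.05%. By bases, all VitC+ H3K9me3 peaks had 3.39% and 5.54%. The femur lists gave 35.8% of wide and 7.80% of narrow peaks for VitC+, against 13.3% of all VitC+ H3K9me3 peaks, and 40.0% and 12.9% for VitC+/-, against 17.4%. Ctrl femurs gave 25.8% and 3.67%, against 11.9% of all. Tet1/2 cKO femurs, with 122.9 Mb of 5hmC peaks compared with 273.4 Mb, gave 13.8% and 2.13%, against 5.25%. These lists came from pooled samples, so no test of the differences was made. The MC3T3-E1 5hmC lists may also differ from the H3K9me3 lists in day of culture.

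**Figure D4:**
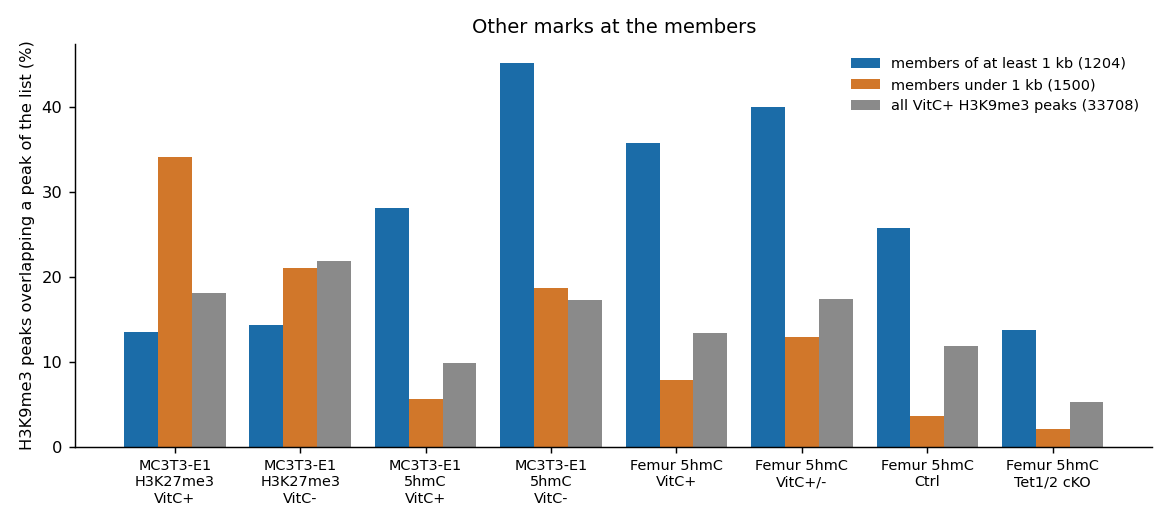
Share of H3K9me3 peaks (y axis, %) that overlapped a peak of each other list (x axis), for kept strong peaks of at least 1 kb (blue), under 1 kb (orange) and all VitC+ H3K9me3 peaks (grey). Narrow peaks led for H3K27me3 of VitC+ cells at 34.1%, and wide peaks led by number overlapped for all 6 5hmC lists. The sets differ in width, and a wider peak has more room for an overlap. By bases, which are not plotted, narrow peaks had the higher share in all of these lists except Ctrl femurs (3.87% against 5.27%).

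The RNA values used here came from femurs and not from these cells, so genes under kept strong peaks were followed from the cell line to bone. The deposited RPKM values of 3 libraries each from WT, VitC+ and VitC+/- femurs were used, without read depth. By the study's description the libraries came from independent animals. A fall in a bulk sample can reflect fewer cells of a type or less RNA per cell, which cannot be told apart. Of 788 entries under a kept strong peak, 354 (44.9%) passed the expression filter of 1 RPKM in 3 libraries, compared with 53.9% of all 23358 entries. For entries under wide peaks it was 54.3% and for entries under narrow peaks only, 30.8%. Gulo itself had 0.0268 to 0.238 RPKM in VitC+, 0.0123 to 0.0177 in VitC+/- and 0 to 0.537 in WT femurs, too low in every group to check the genotype.

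The genes under kept strong peaks changed about as often as other genes. By limma with Benjamini-Hochberg adjustment over 12586 entries, 44 of the 354 (12.4%) differed between VitC+/- and VitC+ femurs at an adjusted p below 0.05, and the share over all entries was 13.4%. Lower in VitC+/- were 27 (7.63%), against a share of 7.52% over all entries, and higher were 17 (4.80%), against 5.93%. The median log2 difference was 0.01, as against 0.02 for all entries. The count fell to 18, 13 and 12 without VitC+ replicate 1, 2 or 3 and to 13 without VitC+/- replicate 1, and to 19 on RPKM as deposited. In the same 5 fits the calls over all entries fell too, to 692, 490, 573, 487 and 876. The shares called were 5.1%, 3.8%, 3.5%, 3.7% and 5.4% under kept strong peaks. Over all entries they were 5.5%, 3.9%, 4.6%, 3.9% and 7.0%.

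Zinc finger genes under kept strong peaks were expressed at low but measurable levels. Of 85 listed, 60 were tested, with a median of 2.44 RPKM in VitC+ and 2.65 in VitC+/-, and only Zfp386 passed the test (1.67%, against 13.4% of all entries). It had 7.92, 8.17 and 7.86 RPKM in VitC+ and 4.89, 5.52 and 5.77 in VitC+/- femurs, and the groups did not overlap, as in 40.5% of all entries tested (log2 difference -0.53 ± 0.15 SE, limma adjusted p = 0.0441). Among 207 tested zinc finger genes elsewhere, 9 passed (4.35%). Of the heavily covered genes, Zfp781 had 0.0189 to 0.0646 RPKM in the VitC+ and 0.0224 to 0.0444 in the VitC+/- libraries. Zfp942 had 1.94 to 2.97 and 3.10 to 3.70 (limma adjusted p = 0.124).

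None of the 6 tested imprinted genes under kept strong peaks passed. Nnat was nearest, with 1.05, 0.647 and 0.668 RPKM in VitC+ and 1.36, 1.70 and 2.12 in VitC+/- femurs. Its groups did not overlap (log2 difference 0.79 ± 0.25 SE, limma adjusted p = 0.0656). Grb10 had 10.9 to 15.4 in VitC+ and 9.22 to 28.2 in VitC+/-, with overlapping groups. The 19 protocadherin entries under peaks were all below the filter.

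Among genes under kept strong peaks that were higher in VitC+/- femurs, Fzd1, a Wnt receptor, rose most. It had 2.25, 1.06 and 1.86 RPKM in VitC+ and 5.03, 4.64 and 12.4 in VitC+/- femurs (log2 difference 1.73 ± 0.36 SE, limma adjusted p = 0.0169). Plec, which encodes the cytoskeletal linker plectin and carries an 11419-base stretch of peak, had 9.49, 9.80 and 9.70 against 19.6, 23.3 and 27.8 (1.23 ± 0.17, limma adjusted p = 0.00361). Neither gene's groups overlapped.

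Rptor, the mTORC1 subunit raptor, had 3.45, 3.10 and 4.14 against 7.61, 9.60 and 8.03. Cdkn1a, the cell cycle inhibitor p21, had 26.9, 17.7 and 23.9 against 52.1, 50.5 and 43.2. The other 6 of the 10 largest rises were Sbf2, Akap6, Jmy, 2810474O19Rik, Trak2 and Rlf, with log2 differences of 0.79 to 1.09. Jmy was the only one of the 10 under a narrow, high-copy peak, and the wide peak at Trak2 had 557 copies.

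Genes under kept strong peaks that were lower in VitC+/- femurs included secreted and signalling factors. Pcsk6, a proprotein convertase, had 18.6, 15.4 and 28.0 RPKM in VitC+ and 3.03, 1.50 and 5.61 in VitC+/- femurs (log2 difference -2.55 ± 0.49 SE, limma adjusted p = 0.0131). Sema3d, a guidance semaphorin, had 3.96, 3.73 and 5.30 against 0.406, 0.233 and 0.486. In both the groups stood apart.

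Ankrd22 had 4.43, 8.09 and 5.78 against 0.698, 1.11 and 0.481, and Clec4a3, a myeloid lectin receptor, had 11.2, 9.67 and 7.97 against 3.37, 3.44 and 4.03. In WT femurs Ankrd22 had 7.94, 11.2 and 12.3, and Clec4a3 had 17.3, 9.97 and 10.7. The other 5 named falls were Cacna2d3, Pitpnm3, Ust, Cep57l1 and Tmem117, with log2 differences of -1.81 to -1.27. Cacna2d3 and Tmem117 lay under narrow peaks of 232 and 263 bp with medians of 330 and 10650 copies. Pcsk6 also lay under a narrow peak, of 532 bp, with a median of 1 copy. The wide peaks at Ankrd22 and Clec4a3 had 487 and 452 copies, and the remaining named falls had 1 to 98. The groups did not overlap in the 44 genes called under kept strong peaks, or in 1691 of the 1692 entries called in all, and the test had chosen these on the same libraries. Cell type lists moved in the same comparison: the summed RPKM of 11 neutrophil genes was 29663 to 47206 in VitC+ and 8225 to 24648 in VitC+/- femurs, with 2 genes lower and 1 higher. For 14 B-cell precursor genes it was at least 94.2 in VitC+ and at most 33.3 in VitC+/-, with 10 lower. For 24 osteoblast and osteocyte genes it was 9424 to 16236 and 3395 to 11440, with 9 lower and 1 higher. For 12 adipocyte genes it was 199 to 429 and 388 to 3264, and for 8 erythroid genes 218 to 292 and 351 to 456. WT femurs had 1855 to 6373 for the osteoblast and osteocyte list, below every VitC+ library. For the neutrophil, B-cell precursor, adipocyte and erythroid lists WT had 52802 to 74800, 59.5 to 194, 114 to 204 and 188 to 304. The part of these cell types in the changes was not tested.

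**Figure D5:**
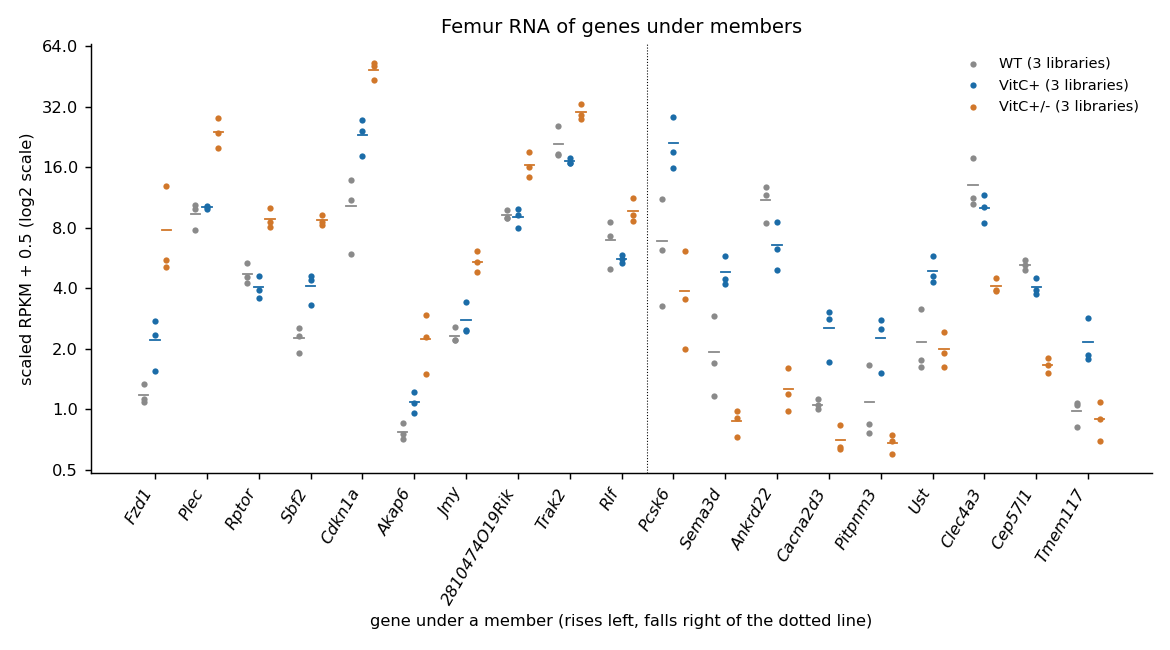
Femur RNA of 10 genes under kept strong peaks with large rises (left) and 9 with large falls (right) from VitC+ to VitC+/-, as scaled RPKM + 0.5 on a log2 axis. Each point is 1 library, 3 per group, and each bar a group mean, WT in grey, VitC+ in blue and VitC+/- in orange. The genes were chosen by the test of this contrast.

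Genes that write, read or remove the mark were tested separately in the same femurs. Of 31 listed, 27 were tested, 4 were higher in VitC+/- and 0 lower at an adjusted p below 0.05, beside shares of 5.93% higher and 7.52% lower over all entries. The median log2 difference was 0.19 against 0.02 over all entries. The 4 calls became 2 on RPKM as deposited, 2, 1 and 2 without VitC+ replicate 1, 2 or 3, and 1 and 2 without VitC+/- replicate 1 or 2. The H3K9me2 demethylase gene Kdm3a had 8.82, 6.79 and 7.59 RPKM in VitC+ and 16.1, 13.9 and 16.9 in VitC+/- femurs (log2 difference 0.97 ± 0.15 SE, limma adjusted p = 0.00552). Kdm4b, which encodes an H3K9me3 demethylase, had 3.57, 3.43 and 4.40 against 6.42, 7.05 and 6.11.

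Morc2a, which acts with the HUSH silencing complex, had 7.13 to 8.72 RPKM in VitC+ and 12.8 to 13.6 in VitC+/- femurs. The methyltransferase gene Setdb2 had 2.06, 2.81 and 2.46 against 3.77, 4.39 and 3.84 (limma adjusted p = 0.0457). The groups did not overlap in 10 of the 27 genes (37.0%), the 4 called included, beside 40.5% of all entries. Trim28 had 39.0 to 42.3 and 38.7 to 42.4, and the limma adjusted p was 0.952. Smchd1, Atf7ip and Kdm4c, which lay under kept strong peaks, had adjusted p-values of 0.922 to 0.996 by limma.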

How the data were processed

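The authors aligned reads to mm10 with BWA 0.7.15.1 and called broad peaks with MACS2, version 2.1.1.20160309.6 per the labels. The methods state an FDR cutoff of 0.05, whereas the lists reach a −log10 q of 1.01. The deposited peak lists give a fold (ratio) of signal over background and −log10 q per peak. The deposited femur RPKM values were divided by median-of-ratios factors, filtered at 1 RPKM in 3 of 9 libraries, and tested as log2(RPKM + 0.5) with limma 3.58.1, VitC+/- minus VitC+. On simulated data 187 of 200 changed genes were recovered with 11 false calls among 12586. Overlaps used bedtools 2.31.1 and RefSeq GRCm38.p6, alignments blastn 2.17.0. Where several VitC- peaks met a region, the highest fold and q and the summed width stand for them. RNA of the Tet knockout femurs was not used here.

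The members and gene lists were chosen with earlier results of these data known. Named regions were the 10 with the highest q, 5 on each side of the threshold, 5 at each end of the fold ratio, the 10 longest runs and those near imprinted genes. Named genes were the 10 zinc finger genes and 3 genes of other families with the most bases, and the 10 largest RNA rises and falls past the threshold, of which 1 gene is not reported here.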

Additional observations from a re-analysis of the deposited data

How the results depend on the processing

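The number of kept strong peaks followed its threshold: 7606 at a −log10 q of 3, 1136 at 10, and 1531 where the VitC- peak also had to reach 5. The share kept was 84.8% at a −log10 q of 3 and 77.8% where 50% of the peak had to be covered. Splits by width, added after the data were seen, gave 99.5% kept for strong peaks of at least 1 kb and 73.4% for those under 1 kb. The share in zinc finger genes was 1.32% at a −log10 q of 10 and 8.72% among peaks of at least 1 kb (added), and the share outside genes was 56.2% with no base within 3 kb of a gene and 48.8% among peaks of at least 1 kb (added). H3K27me3 peaks with a −log10 q of at least 3 covered 1.71% of the bases, against 3.86% for all its peaks. Median fold and width ratios kept their sign in every alternative run.

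RNA calls among genes under these peaks were 19 on RPKM as deposited (876 over all entries, against 1692). They were 79 with 10 kb on both sides of the gene, 14.6% of those tested against 13.4% of all entries. They were 12 to 63 when 1 library was left out. The 12 came without VitC+ replicate 3 (3.5%, against 4.6% of all entries) and the 63 without WT replicate 1 (17.9%, against 18.3%). Machinery calls, varied after the data were seen, were 2 on RPKM as deposited and 1 to 6 when 1 library was left out. Deviations of same-numbered VitC+ and VitC+/- libraries had correlations of -0.07, 0.06 and 0.37 for replicates 1, 2 and 3. Only those of replicate 3 went together to some degree, and the main fit did not pair libraries by number. A replicate block gave 58 calls, and 5 among machinery genes. The RefSeq protein table was not used here, so that alternative was not run. The peak lists give no read counts, so counting error could not be given.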
